A study of Mus musculus with 6 samples.

Results

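The interleukin-6 (IL-6) family of cytokines, their receptor chains and the STAT3 branch below them were followed through 10 genes, which were chosen by symbol for their place in the pathway, with earlier results of these data known. They are the cytokine genes *Il6*, *Il11* and *Lif*, the receptor genes *Il6ra*, *Il6st*, *Lifr* and *Osmr*, the transcription factor gene *Stat3*, and the inhibitor genes *Socs2* and *Socs3*. All 10 were found among the 20405 genes of the table. Where several probe sets (groups of probes) read a gene, the brightest over the 6 arrays was used. Total RNA came from early passage M0505 cells, a line of ovarian surface epithelium (OSE) from FVB/N mice, and from STOSE cells, which arose from M0505 by spontaneous transformation in long-term culture. The labels name no engineered allele and no agent for either line, and both grew in the same medium with serum and epidermal growth factor. Each line is a single culture lineage. The 3 arrays per line are labelled as biological replicates without a statement that they came from separate cultures. The p-values therefore set the difference between the lines against the spread among arrays within each line, and cover these 6 arrays only.

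Cytokines of this family signal through complexes of gp130, the shared signaling chain encoded by *Il6st*, with other receptor chains, some of which serve a single cytokine and some several. Gp130 activates Janus kinases, which phosphorylate STAT3, and STAT3 enters the nucleus and switches on target genes, among them *Socs3*, whose protein binds gp130 and shuts the signal off. IL-6 is known in ovarian cancer as a cytokine of ascites fluid. The arrays measured RNA, and neither protein nor phosphorylated STAT3 was measured here.

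The values are robust multi-array average (RMA) values on a log2 scale, so that a difference of 1 is a 2-fold difference, and levels of different genes are not compared because each has its own probes. STOSE and M0505 arrays were compared with limma, and a gene was called changed at a Benjamini-Hochberg adjusted p under 0.05 over the 20405 genes together with a fold change of at least 2. At that threshold 4.9% of all genes were called higher and 7.59% were called lower in STOSE cells, and 56.5% passed the adjusted p alone. As a gauge of background, the 95th percentile of 1134 olfactory receptor probe sets, whose genes are thought to be silent in such cells, was a log2 value of 4.72. Array medians ran from 6.46 to 6.49 in M0505 cells and from 6.25 to 6.29 in STOSE cells. Setting these medians equal added 0.20 to the log2 fold change of every gene and moved the share of calls that were higher in STOSE cells from 39.2% to 55.5%. That setting also moved the median log2 fold change of all genes from 0.08 to 0.28, so it did not make the typical gene unchanged.

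The tissue label was checked against 11 measured OSE markers. By the adjusted p alone 10 of the 11, against 24.8% of all genes, were lower in STOSE cells. These included *Wt1*, *Msln*, *Upk1b* and *Upk3b*, which were still far above background in both lines and changed less than 2-fold. Called lower were 5 markers (45.5%, against 7.59% of all genes), including the keratins *Krt8* (log2 value 11.37 in M0505 and 6.82 in STOSE cells) and *Krt19* (11.17 and 5.61). *Lhx9* lay just below background in both lines. The summed log2 level of the markers was 118.2 to 119.3 on the M0505 arrays and 101.7 to 103.2 on the STOSE arrays. In bulk RNA, fewer cells of a type and less RNA per cell cannot be told apart. Of 13 measured leukocyte markers, a cell type in which *Il6ra* is abundant, 10 lay below background in both lines, among them *Ptprc* (3.79 and 3.81) and *Emr1* (3.41 and 3.54), and the summed level overlapped between the lines at 59.7 to 60.4 and 59.4 to 60.2. *Cd68*, which is not restricted to leukocytes, was the one leukocyte marker called changed, from 9.78 in M0505 to 6.96 in STOSE cells. By the adjusted p alone 4 of the 13 were higher in STOSE cells, against 31.6% of all genes. The 4 were *Cd14* (5.78 and 6.75, log2 fold change 0.97), *Lyz2* (3.62 and 4.18, 0.56), *Cd79a* (3.34 and 3.69, 0.35) and *Cd3e* (5.09 and 5.31, 0.22). Of these, *Lyz2* and *Cd79a* lay below background in both lines. The summed level of 10 endothelial markers was 55.7 to 56.6 in M0505 and 48.3 to 49.2 in STOSE cells, with *Kdr* (9.58 and 4.41) and *Esam* (8.12 and 5.35) called lower. The list was split, however, with 3 of the 10 higher and 3 lower by the adjusted p alone and a median log2 fold change of 0.07. The summed level of 8 granulosa and steroidogenic markers was 46.8 to 47.3 and 37.3 to 37.7, with *Inha* (9.61 and 5.68) and *Star* (11.34 and 5.37) called lower. Here too 3 were higher and 3 lower by the adjusted p alone, and the median log2 fold change was −0.006. Background exceeded both line means in 4 of the 8. The part of these other cell type markers in the values of the 10 genes was not tested.

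Of the 10 genes, *Il6ra* and *Lifr* were called higher in STOSE cells and none was called lower, against 4.9% and 7.59% of all genes. 5 further genes passed the adjusted p with changes under 2-fold, *Lif*, *Osmr* and *Socs3* being higher and *Socs2* and *Stat3* lower, while *Il6*, *Il11* and *Il6st* did not pass it. The median log2 fold change of the 10 was 0.24, against 0.08 over all genes. By the adjusted p alone, 31.6% of all genes were higher and 24.8% lower. The arrays of the lines did not overlap in 8 of the 10 genes, 5 higher and 3 lower, and this held for 64.6% of all genes, 37.6% higher and 27% lower. Both line means lay above background in 9 of the 10 genes, against 67.6% of all genes.

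**Figure D1:**
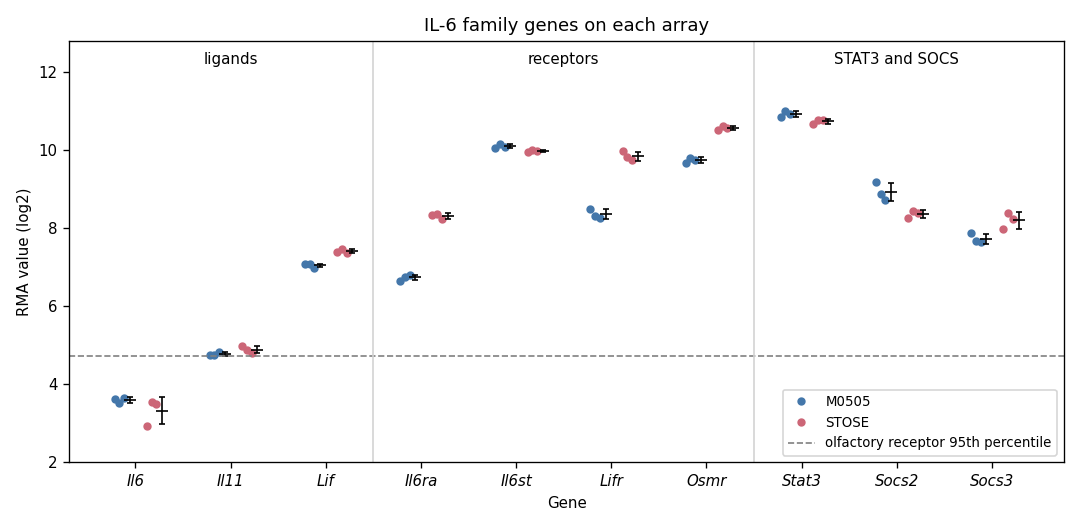
RMA value (log2, y axis) of each of the 10 genes (x axis) on the 3 M0505 and 3 STOSE arrays. Points are arrays, black bars are the mean ± SD, and the dashed line is the olfactory receptor 95th percentile of 4.72. *Il6* lies below the line on all 6 arrays, and the points of the lines are farthest apart for *Il6ra* and *Lifr*.

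Among the receptor genes, *Il6ra* encodes the chain that binds IL-6 itself. Its log2 values were 6.65, 6.75 and 6.80 on the M0505 arrays and 8.32, 8.36 and 8.23 on the STOSE arrays. The lines were separated by 1.43 between the highest M0505 and the lowest STOSE array. The mean rose from 6.73 ± 0.08 to 8.31 ± 0.07 (SD, n = 3), a log2 fold change of 1.57 or 2.98-fold (standard error 0.07, adjusted p = 3.53e-07 from limma). On chromosome 3, the 16 nearest measured genes, 8 on either side, had a median log2 fold change of 0.26. The median was 0.18 for the 941 measured genes of that chromosome. None of the 16 was called, against 12.5% of all genes. The part of this stretch in the values of *Il6ra* was not tested.

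*Lifr* encodes the chain that binds leukemia inhibitory factor and pairs with gp130. It was read at 8.49, 8.31 and 8.26 on the M0505 arrays and at 9.97, 9.81 and 9.74 on the STOSE arrays. Every STOSE array exceeded every M0505 array, and the nearest were 1.25 apart. The mean rose from 8.36 ± 0.12 to 9.84 ± 0.12 (SD, n = 3), a log2 fold change of 1.48 or 2.80-fold (standard error 0.09, adjusted p = 2.06e-06 from limma). Without each array in turn, the log2 fold change stayed between 1.53 and 1.61 for *Il6ra* and between 1.42 and 1.55 for *Lifr*.

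*Osmr*, the gene of the oncostatin M receptor chain, shared the direction with a smaller difference. Its values were 9.66, 9.80 and 9.74 on the M0505 arrays and 10.51, 10.62 and 10.56 on the STOSE arrays, with no overlap. The log2 fold change of 0.83 (standard error 0.06, 1.78-fold, limma adjusted p = 1.05e-05) lay under the 2-fold threshold, which it crossed only with the array medians set equal (1.03).

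*Il6st*, the gene of the shared chain gp130, was not higher. It was read at 10.06, 10.15 and 10.07 on the M0505 arrays and at 9.95, 9.99 and 9.98 on the STOSE arrays, so that the STOSE arrays were the lower ones by a narrow margin of 0.08. Its log2 fold change was −0.12 (standard error 0.06, 95% interval −0.25 to 0.01, limma adjusted p = 0.0996), and it turned to 0.08 with the array medians set equal. It passed the adjusted p under limma with an intensity trend (0.0459) and under the methods' t-test with adjustment over all genes (0.0343). The interval lies below the rises of *Il6ra* (1.42 to 1.73) and *Lifr* (1.28 to 1.68). Among these receptor genes, the calls fell on *Il6ra* and *Lifr* and not on the common chain.

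The sequence before the start sites of both called genes is shown because their RNA moved most. These are the 250 bases before each start listed by RefSeq for GRCm38.p6, 5′ to 3′ on the gene's strand, for *Il6ra* at chr3:89913197-89913446 (minus strand) and for 2 starts of *Lifr* at chr15:7129322-7129571 and chr15:7140292-7140541 (both plus strand). A pair of motifs were searched on both strands from 250 bases before to 50 after each start, the STAT motif TTCNNNGAA, held by 8.3% of 32851 promoters, and the AP-1 motif TGANTCA, held by 7.81%. These windows of *Il6ra* and *Lifr* hold neither, so no letters are in capitals.
Il6ra: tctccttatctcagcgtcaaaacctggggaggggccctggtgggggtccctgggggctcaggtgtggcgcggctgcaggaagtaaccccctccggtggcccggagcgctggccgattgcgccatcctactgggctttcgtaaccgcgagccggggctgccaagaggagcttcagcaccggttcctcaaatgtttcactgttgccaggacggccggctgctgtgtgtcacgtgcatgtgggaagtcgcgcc
Lifr start 1: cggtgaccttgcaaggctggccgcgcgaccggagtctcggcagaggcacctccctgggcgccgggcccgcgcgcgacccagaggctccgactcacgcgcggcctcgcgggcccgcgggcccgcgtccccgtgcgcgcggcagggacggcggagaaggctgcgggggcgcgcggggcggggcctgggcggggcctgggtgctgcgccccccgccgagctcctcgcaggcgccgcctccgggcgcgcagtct
Lifr start 2: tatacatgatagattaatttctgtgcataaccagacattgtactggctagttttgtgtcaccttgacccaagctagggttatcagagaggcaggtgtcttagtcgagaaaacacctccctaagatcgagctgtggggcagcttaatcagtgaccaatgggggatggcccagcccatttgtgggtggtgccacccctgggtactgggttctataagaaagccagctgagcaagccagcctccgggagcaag

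*Osmr* and *Lifr* are neighbours on chromosome 15, with 0 measured genes between them in the RefSeq order. Of the 16 genes around the pair, 8 on either side, 14 passed the adjusted p as higher in STOSE cells, against 31.6% of all genes. Of the 16, 0 were called lower, against 7.59% of all genes, and 4 were called higher, against 4.9%. The 4 included *Ptger4*, a prostaglandin receptor gene (log2 fold change 2.25, standard error 0.21), and *Gdnf*, a neurotrophic factor gene (2.81, standard error 0.16). The others were *Wdr70* (1.19, standard error 0.07) and the glutamate transporter gene *Slc1a3* (1.28, standard error 0.12). *Egflam*, next to *Lifr*, had a log2 fold change of −0.45. The median log2 fold change of the 16 neighbours was 0.57, against 0.17 for the 751 measured genes of chromosome 15. The part of this stretch in the values of *Osmr* and *Lifr* was not tested.

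**Figure D2:**
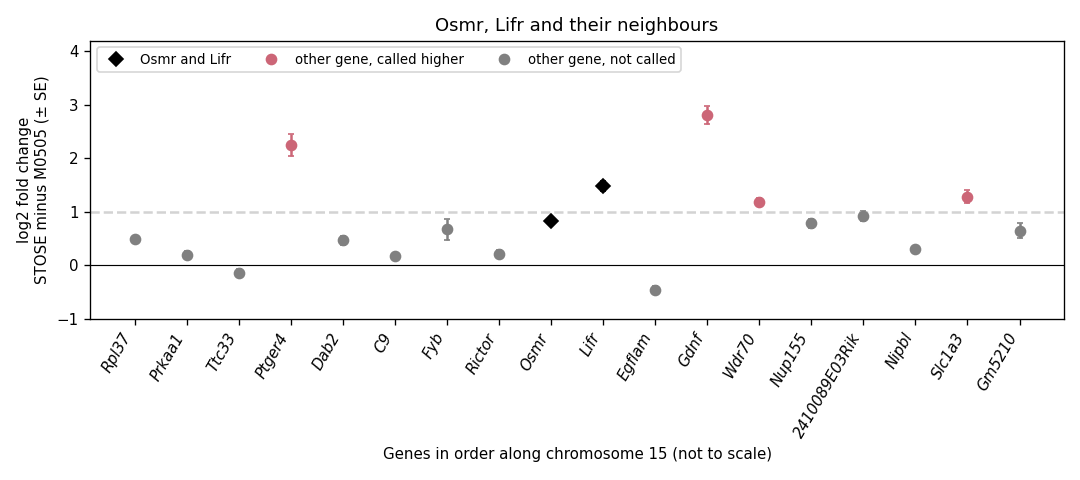
Log2 fold change, STOSE minus M0505 (y axis, ± limma standard error), of *Osmr*, *Lifr* and the 16 measured genes around them in their order along chromosome 15 (x axis, not to scale). Diamonds are the receptor pair, and the dashed line marks 2-fold. All but *Ttc33* and *Egflam* lie above 0.

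On the ligand side, *Il6* RNA was not detected above background in either line. Its log2 values were 3.61, 3.51 and 3.65 on the M0505 arrays and 2.94, 3.55 and 3.49 on the STOSE arrays. All 6 lay below the olfactory receptor 95th percentile of 4.72, and the lines overlapped. Its difference of −0.26 on the log2 scale (standard error 0.15, 95% interval −0.61 to 0.08, limma adjusted p = 0.17) is one between background readings, and it was −0.07 without STOSE replicate 1.

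*Il11* encodes interleukin-11, which also signals through gp130. It was read at 4.74, 4.74 and 4.83 on the M0505 arrays and at 4.97, 4.88 and 4.81 on the STOSE arrays, which is at the edge of background in both lines, and the lines overlapped. The difference on the log2 scale was 0.12 (standard error 0.07, 95% interval −0.03 to 0.27, limma adjusted p = 0.153), and only with the array medians set equal did it pass the adjusted p, at 0.32.

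*Lif*, the gene of leukemia inhibitory factor, was the only one of these 3 cytokine genes with RNA clearly above background. Its values were 7.07, 7.07 and 6.99 on the M0505 arrays and 7.40, 7.47 and 7.37 on the STOSE arrays, without overlap. STOSE cells were higher by a log2 fold change of 0.37 (standard error 0.06, 1.29-fold, limma adjusted p = 0.000841), or 0.57 with the array medians set equal. Both the ligand gene and the receptor gene of this pair were thus read as higher in STOSE cells, by 1.29-fold for *Lif* and 2.80-fold for *Lifr*.

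A stretch of 60 bases before a start site of each cytokine gene is shown because all 3 genes held the AP-1 motif, given in capitals. It began 249 bases before the start of *Il6* (chr5:30012864-30012923, plus strand), 98 bases before the downstream of the 2 listed starts of *Il11* (chr7:4778206-4778265, minus strand) and 228 bases before the start of *Lif* (chr11:4257318-4257377, plus strand), all from RefSeq on GRCm38.p6. Another match, at *Osmr*, began 4 bases after the start. Of all genes with a listed promoter, 8.97% hold this motif. The match is shared by genes with RNA at background and by a gene above it.
Il6: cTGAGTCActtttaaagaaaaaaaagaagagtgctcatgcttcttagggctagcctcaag
Il11: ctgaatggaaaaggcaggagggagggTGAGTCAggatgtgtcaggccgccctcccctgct
Lif: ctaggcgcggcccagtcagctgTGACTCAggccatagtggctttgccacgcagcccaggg

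The transcription factor gene *Stat3* was read high in both lines, at 10.85, 10.996 and 10.93 on the M0505 arrays and 10.67, 10.77 and 10.77 on the STOSE arrays. The groups were separated by 0.075. The log2 fold change of −0.19 (standard error 0.07, 95% interval −0.34 to −0.04, limma adjusted p = 0.0378) corresponds to 1.14-fold less RNA. It passed the adjusted p in 1 of 6 fits with an array left out, where the limma adjusted p ran from 0.0257 to 0.123. That p was 0.0586 after a further quantile normalization, and the log2 fold change was 0.01 with the array medians set equal.

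*Socs3*, the feedback inhibitor that STAT3 induces, was higher in STOSE cells. Its values were 7.87, 7.67 and 7.63 on the M0505 arrays and 7.96, 8.40 and 8.22 on the STOSE arrays, with 0.09 between the nearest arrays of the lines. The log2 fold change was 0.47 (standard error 0.12, 1.38-fold, limma adjusted p = 0.00849), and the other probe set of the gene gave 0.54 (standard error 0.10). Under the methods' t-test, with Benjamini-Hochberg adjustment over all genes, its adjusted p was 0.0632.

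*Socs3* was the only one of the 9 genes with a listed promoter in which the STAT motif was found, in capitals here, beginning 154 bases before its start. This count of 1 in 9 is close to the 9.55% of all 27025 genes with a listed promoter that hold the motif. The 250 bases before the start lie at chr11:117969367-117969616 on the minus strand of GRCm38.p6 (RefSeq). They are printed because this inhibitor is the textbook target of the pathway.
Socs3: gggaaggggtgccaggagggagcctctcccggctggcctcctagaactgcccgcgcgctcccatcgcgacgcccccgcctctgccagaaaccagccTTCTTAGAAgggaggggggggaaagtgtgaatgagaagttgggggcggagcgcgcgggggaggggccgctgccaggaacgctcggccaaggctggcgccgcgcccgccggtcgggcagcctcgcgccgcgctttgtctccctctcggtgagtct

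*Socs2*, an inhibitor best known for restraining growth hormone signaling, was lower in STOSE cells. The brighter of its 2 probe sets gave 9.18, 8.86 and 8.72 on the M0505 arrays and 8.25, 8.44 and 8.38 on the STOSE arrays, without overlap. This is a log2 fold change of −0.56 (standard error 0.11, limma adjusted p = 0.00309), or −0.36 with the array medians set equal. This probe set carries a number that lies among those of chromosome 12 genes (14 of the 19 nearest placed), whereas *Socs2* lies on chromosome 10. The other probe set, whose number lies among those of chromosome 10 genes (17 of 18), gave 7.22, 7.04 and 7.001 on the M0505 arrays and 6.69, 6.74 and 6.63 on the STOSE arrays. Its log2 fold change was −0.40 (standard error 0.07, limma adjusted p = 0.00199 over all probe sets), in the same direction. Which sequence the brighter probe set reads was not tested.

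The other genes of the pathway were taken from 8 lists, of which 79 of 80 genes were measured. Of these, 5 were called higher and 9 lower in STOSE cells, which is 17.7% against 12.5% of all genes. By the adjusted p alone 22 were higher and 29 lower, which is 64.6% against 56.5% of all genes. Their median log2 fold change of 0.05 lay near the 0.08 of all genes. With the array medians set equal, 5 were called lower.

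**Figure D3:**
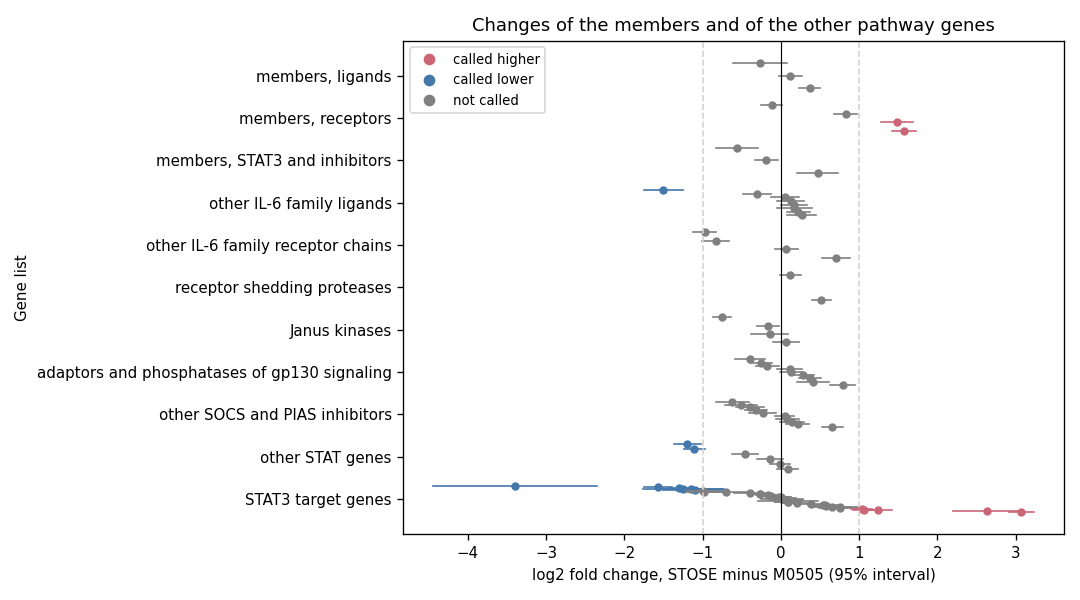
Log2 fold change, STOSE minus M0505 (x axis, points, with limma's 95% intervals as lines), of the 10 genes and of the 79 other pathway genes, by list (y axis). Dashed lines mark 2-fold. Calls other than *Il6ra* and *Lifr* lie among the other ligands, the other STAT genes and the STAT3 targets.

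Of the 8 other ligand genes measured, 1 was called. *Ctf1*, which encodes cardiotrophin-1, a cytokine that binds the LIF receptor, fell from 8.08 ± 0.14 to 6.57 ± 0.18 (SD, n = 3), a log2 fold change of −1.50 (standard error 0.11, adjusted p = 6.17e-06 from limma). *Osm*, the gene of oncostatin M, lay below background in both lines (3.83 and 4.00). None of the 4 other receptor genes was called, although *Cntfr*, the receptor chain for ciliary neurotrophic factor (log2 fold change −0.98, standard error 0.06, and −1.02 and called without M0505 replicate 3), and *Il11ra1*, the receptor chain for interleukin-11 (−0.84, standard error 0.08), were lower by the adjusted p alone. *Il31ra* was higher by the adjusted p alone (0.70, standard error 0.08) with both line means below background, and *Il27ra* had a value of 0.07 (adjusted p = 0.388).

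Of the kinases, *Jak1*, the main Janus kinase at gp130, had a log2 fold change of −0.75 (standard error 0.05, limma adjusted p = 5.70e-06), and *Jak2* one of 0.06 (adjusted p = 0.488). The 4 kinase genes, the 9 adaptor and phosphatase genes and the 10 other SOCS and PIAS inhibitor genes included 0 calls. Over all genes, 12.5% were called. By the adjusted p alone 2, 7 and 7 of these genes passed, against 56.5% of all genes. The kinases had 0 higher and 2 lower, the adaptors and phosphatases 4 and 3, and the other inhibitors 2 and 5. Among the sheddases, which can release IL-6 receptor from the cell surface, *Adam17* was higher by 0.52 (standard error 0.05, adjusted p = 6.67e-05) and *Adam10* had a value of 0.12 (adjusted p = 0.111).

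Among the STAT genes other than *Stat3*, *Stat2*, which carries interferon signals, fell by 1.20 on the log2 scale (standard error 0.08, limma adjusted p = 3.18e-06). It lay at −0.998, just under 2-fold, with the array medians set equal.

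The 36 STAT3 target genes moved in both directions. By the adjusted p alone, 12 were higher and 12 were lower (66.7% together, against 56.5% of all genes). The median log2 fold change was 0.02, and 5 were called higher and 6 lower (30.6% called, against 12.5% of all genes). The largest rises were those of *Ifitm3*, an interferon-inducible membrane protein gene (log2 fold change 3.07, standard error 0.07), *Ccnd1*, the cyclin D1 gene (2.63, standard error 0.19), and *Birc5*, the survivin gene (1.24, standard error 0.08). The largest falls were those of the acute-phase gene *Saa3* (−3.40, standard error 0.45), the interleukin-4 receptor gene *Il4ra* (−1.58, standard error 0.08), the kinase gene *Pim1* (−1.30, standard error 0.06), the lipopolysaccharide-binding protein gene *Lbp* (−1.25, standard error 0.23) and the AP-1 factor gene *Fos* (−1.15, standard error 0.18), which was under 2-fold without STOSE replicate 1 (−0.93) and with the array medians set equal (−0.95). Of the 36, 8 lay below background in both lines, among them the fibrinogen genes *Fga* and *Fgb*. Several of these genes are also driven by other pathways, which these arrays cannot separate.

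**Figure D4:**
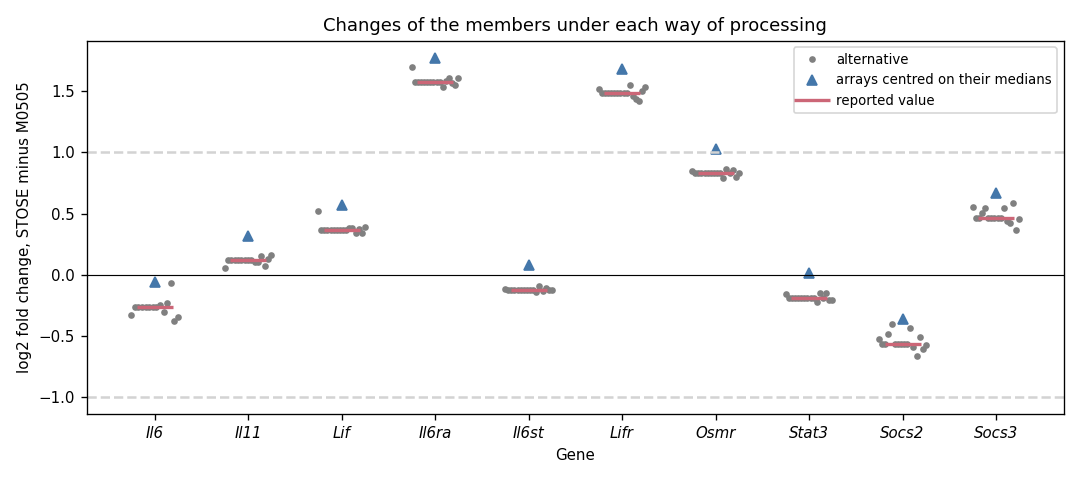
Log2 fold change, STOSE minus M0505 (y axis), of each of the 10 genes (x axis) as reported (bars) and under each alternative (grey points), with the setting that makes the array medians equal as triangles. Dashed lines mark 2-fold. *Il6ra* and *Lifr* stay above 1 in every setting, and the triangles of *Il6st* and *Stat3* lie above 0.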

How the data were processed

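RNA of 3 M0505 and 3 STOSE samples was read on Affymetrix Mouse Gene 1.0 ST arrays. The authors processed the arrays with Affymetrix Expression Console by RMA (background correction, quantile normalization, summary per probe set) and deposited log2 values, 1 column per array. The deposited table also holds the authors' mean per line and their ratio and fold change of STOSE to M0505, which were not used. Versions, annotation release and genome build are not given in the sources used here. Of 28944 probe sets, 23530 carried a symbol and stood for 20405 genes. The lines were compared with limma 3.58.1 in R 4.3.3 (lmFit, eBayes, no covariate), and the fit was tested on simulated data. Precision is limited by 6 arrays. An exact permutation test of 3 against 3 arrays, two-sided, reaches at best p = 0.1 and was not run.

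The genes and lists were chosen with earlier results of these data known. Named singly were all 10 genes, the genes called in each pathway list (at most 8 per list, by size of change) and the 2 called genes nearest in pattern to each called member. Others were named after their values were seen, among them the genes around *Osmr* and *Lifr*, *Osm*, *Cntfr*, *Il11ra1*, *Jak1*, *Jak2*, *Adam10*, *Adam17*, *Il31ra*, *Il27ra*, *Fga*, *Fgb* and the cell type markers. A result that this rule would name is not reported here. Gene order, chromosomes (97.5% of genes placed by symbol or synonym) and promoter sequences came from RefSeq on GRCm38.p6. *Socs2* had no listed promoter. Alternatives varied normalization, dim genes, probe sets, variance model, test, threshold, pairing and arrays.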

Additional observations from a re-analysis of the deposited data

How the results depend on the processing

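Under 16 of the 17 alternatives the counts of the 10 genes called stayed at 2 or 3 higher and 0 lower, the third being *Osmr* with each array centred on its median. With the adjusted p alone and no fold threshold, the 10 genes gave 5 higher and 2 lower, all genes 6454 higher and 5066 lower (1000 and 1548 with the threshold), and the other pathway genes 22 higher and 29 lower (5 and 9). Centring of each array on its median left 5 pathway genes called lower and turned *Il6st* to 0.0794 (−0.12 as reported) and *Stat3* to 0.0129 (−0.19 as reported). It adds one constant to every log2 fold change, and which scale is nearer to the RNA content of the cells was not tested. With each array left out in turn, all genes gave 955 to 1065 higher and 1508 to 1591 lower, the pathway genes 5 higher throughout and 8 to 11 lower. *Il6* was not among the genes kept without the dimmest 25% and 50%, nor *Il11* without the dimmest 50%.

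Replicate numbers are shared by the lines. Deviations of same-numbered arrays from their line means correlated across genes at 0.26, 0.04 and 0.25. Each M0505 array correlated best with its own number, but STOSE replicate 2 correlated better with M0505 replicate 3 (0.12). The numbers were not taken as pairs. A replicate block gave 1001 genes higher and 1548 lower, 2 and 0 of the 10 genes, and 5 and 9 pathway genes, and changed no call of the 10.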

Other observations

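The called genes whose values ran closest to those of *Il6ra* over the 6 arrays, after each gene was centred on its own mean, were *Met*, the hepatocyte growth factor receptor gene (Euclidean distance 0.09 on the log2 scale, log2 fold change 1.57), and *Fndc4* (distance 0.13, log2 fold change 1.54), out of 2547 candidates. For *Lifr* they were *Nob1*, a ribosome assembly gene (distance 0.05, log2 fold change 1.46), and *Exosc10*, a gene of the RNA exosome (distance 0.07, log2 fold change 1.51). With 6 arrays in 2 lines, this likeness mostly reflects the size of the difference between the lines.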
